A study of Mus musculus with 36 samples.

Results

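In CUG960 mice, feeding doxycycline (dox) turns on an RNA with a long, interrupted CUG repeat in heart muscle cells, and the comparison was between atria in which the repeats were on and atria in which they were never on. It takes the 3 atrial libraries of the +dox cohort and the 3 atrial libraries of the –dox cohort, 6 of the 36 libraries of the series, and covers all 19231 of the 55291 gene symbols that passed a filter on low counts. All animals were 21 weeks old and carried both transgenes, TREDT960I on both alleles and MHCrtTA on 1 allele. +dox animals ate dox chow from postnatal day 1, and –dox animals never received it. Each cohort had 3 animals and both males and females, and every library came from 1 animal.

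In myotonic dystrophy type 1, a CTG repeat expansion in DMPK is transcribed into CUG repeat RNA that stays in the nucleus and binds muscleblind-like (MBNL) proteins, which otherwise steer developmental splicing. Patients often have slow atrioventricular conduction and atrial arrhythmia, so genes of the atrial action potential, of cell-to-cell coupling and of calcium release are of interest in this tissue. In the model the reverse transactivator is made under the promoter of alpha-myosin heavy chain, which is active in cardiomyocytes, so the transgene is not driven in the other cells of the atrium. Dox and the repeats were given together, and with no dox-fed animals lacking the repeats among the 36 libraries, an effect of dox itself cannot be told apart from an effect of the repeat RNA. The human repeat transcript is not among the gene symbols, so its induction was not analysed here.

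The 6 libraries held between 62.54 and 85.78 M (mega) counts each. Levels are given as CPM, counts scaled to a common library size, after TMM scaling, which corrects for composition, in the order of replicates 1, 2 and 3. Changes are log2 fold changes of +dox over –dox with their standard error (SE), so that a positive value is higher with the repeats on. Adjusted p-values come from the quasi-likelihood test of edgeR and were adjusted over all tested genes by the Benjamini-Hochberg method, and a gene was called, and is said to have risen or fallen, at an adjusted p below 0.05 and a fold of at least 1.5.

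All 6 libraries carried the atrial markers, and some stood apart. Myl7, the atrial light chain, was at 2189 to 2751 CPM, against at most 76.3 in any ventricular library, and Sln, the atrial SERCA inhibitor sarcolipin, was at 823 to 1119 CPM, against at most 33.1. The library of –dox replicate 3 held more ventricular and red cell transcripts than the others and was lowest in Hcn4 and Cntn2. Its ventricular light chain Myl2 was at 153 CPM, against 8.10 to 18.8 CPM in the other 5, and its haemoglobin gene Hbb-bs was at 327 CPM, against 71.3 to 164.9. Its pacemaker channel gene Hcn4 was at 2.88 CPM and the conduction tissue gene Cntn2 at 4.43 CPM, while the other 5 libraries held 13.1 to 27.2 and 20.5 to 40.1 CPM. Among the +dox libraries, replicate 3 was high in interferon-induced genes, and replicate 1 was low in the mesothelial gene Msln, with 6.58 CPM against 18.2 to 40.6 in the other 5. In both cohorts replicate 3 was also the female, with Xist at 263 and 424 CPM and at most 0.354 CPM in the other 4 libraries, and its library name belonged to a different number series (a library set) than those of replicates 1 and 2. Sex and library set were thus balanced between the cohorts but cannot be told apart from each other. Leaving out replicate 3 of both cohorts left 789 called genes, 647 of them among the genes called with all libraries.

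With the repeats on, 1005 genes (5.23% of those tested) were called, 461 higher (2.40%) and 544 lower (2.83%). Of these, 455 changed at least 2-fold and 977 had no overlap between the 3 +dox and the 3 –dox libraries, a separation that 36.6% of all tested genes showed. The adjusted p alone held for 3060 genes, 1657 higher and 1403 lower. The median change over all tested genes was -0.027, with quartiles at -0.32 and 0.20. The balance of higher and lower calls moved with the settings. Of the 1005 genes 45.9% were higher, against 59.4% of 690 with limma on log2(TPM + 1), 54.2% without the fold cutoff and 53.1% without replicate 3 of both cohorts.

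**Figure D1:**
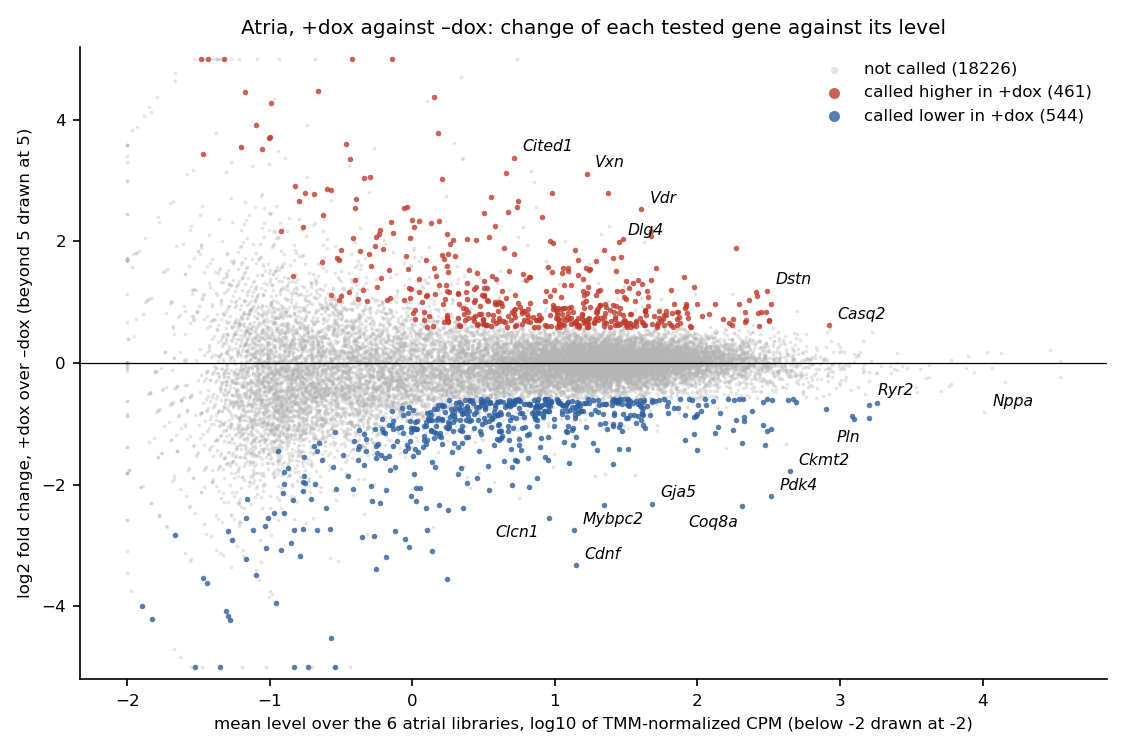
Each point is 1 of the 19231 tested genes, with its mean level over the 6 atrial libraries on the x axis (log10 of TMM-normalized CPM) and its log2 fold change, +dox over –dox, on the y axis. The 461 genes called higher are red and the 544 called lower are blue. The calls spread over the whole range of levels, up to abundant genes such as Ryr2 and Pln, while Nppa, the most abundant labelled gene, lies below 0 without a call.

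Among the genes with the largest rises, none of those described next overlapped between the cohorts. Positions of genes are on GRCm38. Vxn (vexin, chr1:9601199-9627143), known from nerve cell differentiation, was at 3.51, 3.30 and 3.58 CPM without dox and 30.2, 28.7 and 31.2 CPM with it. It rose in all 3 libraries by nearly the same amount, with a log2 fold change of 3.12 ± 0.13 and an adjusted p of 1.98e-17. Cited1 (chrX:102247381-102252181), a transcriptional coactivator that binds CBP and p300, was at 9.45, 10.7 and 7.97 CPM in the +dox atria and 0.491, 0.694 and 1.52 CPM in the –dox atria, and had a log2 fold change of 3.38 ± 0.41 and an adjusted p of 7.88e-07. Vdr, the vitamin D receptor (chr15:97854425-97910630), was at 62.3, 74.0 and 70.5 CPM in +dox and 9.56, 10.7 and 15.5 CPM in –dox libraries. Every +dox library lay far above every –dox library, with a log2 fold change of 2.53 ± 0.21 and an adjusted p of 2.42e-09. Rimkla, the enzyme that joins N-acetylaspartate to glutamate, was at 2.91, 2.26 and 2.04 CPM without dox and 17.2, 16.5 and 16.7 CPM with it (a log2 fold change of 2.80 ± 0.23 and an adjusted p of 1.16e-09).

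Erc2 and Rims4, both of the presynaptic active zone, were also among the largest rises, by log2 fold changes of 2.67 ± 0.24 and 2.47 ± 0.23, and Gucy2e, a guanylate cyclase of photoreceptors, rose by 2.57 ± 0.35. Erc2 overlaps 2 predicted genes on its strand, and its count may include theirs. Dlg4, which encodes the postsynaptic scaffold PSD-95 and is named for its difference between the chambers, was at 46.1, 47.9 and 41.3 CPM in the +dox atria and 12.3, 9.84 and 11.8 CPM in the –dox atria, with a log2 fold change of 2.00 ± 0.12 and an adjusted p of 4.95e-13. Rgs16, an accelerator of G protein deactivation, rose by 2.48 ± 0.32. Ptchd3 and Sult4a1 rose by 3.78 ± 0.70 and 3.03 ± 0.62 from levels of at most 0.527 CPM. Serpina3f, a serine protease inhibitor, had the largest fitted change, 4.38 ± 1.48, but the most scattered values, at 1.46, 0.258 and 6.42 CPM in +dox and 0.0882, 0.218 and 0.0771 CPM in –dox libraries. It lost its call without +dox replicate 1 or 3 or without any 1 of the –dox libraries (adjusted p 0.0639 to 0.237), and its change was 2.74 without +dox replicate 3. It was not called by limma either (adjusted p = 0.0919).

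Cdnf, Coq8a and Lad1, among the largest falls, did not overlap between the cohorts. Cdnf (chr2:3513030-3526376), a protein of the endoplasmic reticulum first known as a neurotrophic factor, was at 26.6, 27.4 and 23.1 CPM without dox and 2.67, 2.65 and 2.38 CPM with it, and had a log2 fold change of -3.32 ± 0.24 and an adjusted p of 1.08e-10. Coq8a (chr1:180165238-180199602), an atypical kinase needed to make coenzyme Q, was at 73.3, 66.5 and 63.7 CPM in the +dox atria and 365, 312 and 359 CPM in the –dox atria. The fitted fold was 5.09 in favour of –dox, with a log2 fold change of -2.35 ± 0.18 and an adjusted p of 9.36e-10. Lad1, which encodes the anchoring filament protein ladinin, was at 7.51, 8.06 and 6.24 CPM in +dox and 38.0, 37.4 and 34.6 CPM in –dox libraries, with a log2 fold change of -2.33 ± 0.26 and an adjusted p of 2.66e-07. Of the genes at lower levels, Rab3b, a GTPase of regulated secretion, fell by 3.09 ± 0.47 on the log2 scale, and Dpysl5, of the collapsin response mediators of growing axons, fell by 2.09 ± 0.37. Stmnd1 and Mfsd4b1 fell by 2.75 ± 0.52 and by 2.42 ± 0.22. Dusp26, a phosphatase gene, fell by 2.26 ± 0.61 and lost its call without +dox replicate 1 (-2.10, adjusted p = 0.0668) or 2 (-1.82, adjusted p = 0.0735).

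**Figure D2:**
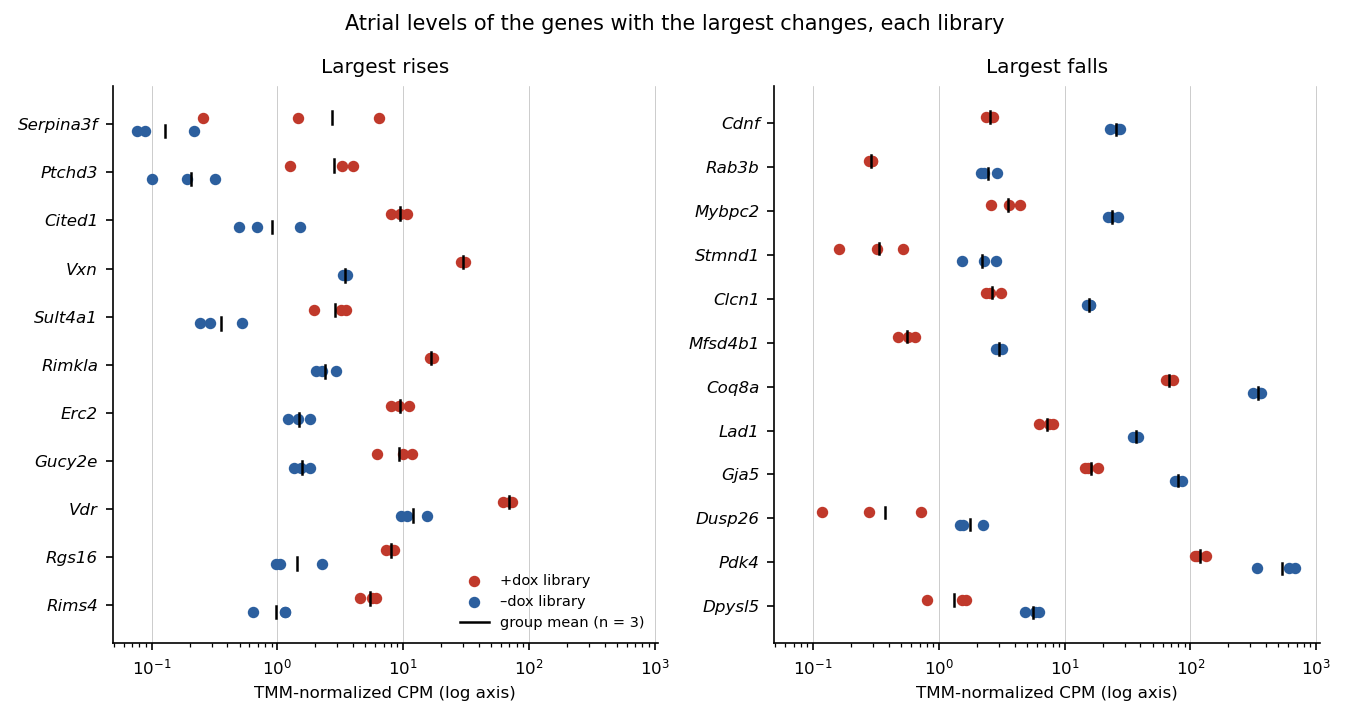
Levels of 11 genes with the largest rises (left) and 12 with the largest falls (right) among called, non-overlapping genes with a mean of at least 1 CPM, in TMM-normalized CPM on a log axis. Red points are the 3 +dox libraries, blue points are the 3 –dox libraries and black bars are group means. The colours do not overlap for any of these genes, which the choice of genes required, and Serpina3f has the widest spread.

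Cell-to-cell coupling and intercalated disc genes did not move in 1 direction. Of 28 genes tested, 2 were called higher and 2 lower, or 7.14% each way, and the list median was 0.04. Over all genes tested 2.40% were called higher and 2.83% lower, and the counts of the lists that follow stand beside these shares. Gja5 (chr3:96904693-97077416) encodes connexin 40, a connexin of atrial muscle and the fast conduction system. It was at 85.5, 74.9 and 78.8 CPM without dox and 15.3, 14.5 and 18.3 CPM with it. The 3 +dox libraries lay close together and far below the –dox libraries, a fold of 4.97, with a log2 fold change of -2.31 ± 0.22 and an adjusted p of 1.5e-08. Gja1, the connexin 43 gene, was at 241, 237 and 218 CPM in the +dox atria and 313, 310.2 and 336 CPM in the –dox atria, with no overlap but a change under the 1.5-fold cutoff (a log2 fold change of -0.46 ± 0.11 and an adjusted p of 0.00425). Pkp4, a plakophilin of cell junctions, was at 460.2, 469 and 374 CPM in +dox and 222, 219 and 225 CPM in –dox libraries and rose (a log2 fold change of 0.97 ± 0.09 and an adjusted p of 3.41e-09). Popdc3, a member of the cyclic AMP-binding Popeye family, rose by 1.13 ± 0.13. Nrap, which anchors thin filaments at the disc, had a log2 fold change of -0.59 ± 0.17 and lost its call without +dox replicate 3 (-0.46) or –dox replicate 1 (-0.58).

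Of 14 sodium channel subunit genes, 4 fell and 1 rose, with a list median of -0.18. The falls were 28.6% of the list, against 2.83% of all genes. The 5 calls became 3 without +dox replicate 1 or 2 or –dox replicate 2. Scn7a, an atypical sodium channel, was at 79.2, 75.7 and 72.4 CPM without dox and 42.9, 49.6 and 47.5 CPM with it, with a log2 fold change of -0.70 ± 0.13 and an adjusted p of 0.000246. Scn3a, at no more than 1.40 CPM in any of the 6 libraries, fell by 1.07 ± 0.22. Scn10a (-0.92 ± 0.29) and the beta subunit gene Scn4b (0.80 ± 0.26) were called with all libraries. Scn10a lost its call without +dox or –dox replicate 1 or 2 (-0.87 to -0.80), and Scn4b without +dox replicate 1 or 2 or –dox replicate 2 or 3 (0.64 to 0.77).

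Among 37 repolarizing potassium channel genes, 3 rose and none fell, and the list median was -0.02. Falls appeared in other fits. Without +dox replicate 3, 2 were called lower (median -0.24), as were 2 without –dox replicate 3 and 2 with the 18 atrial libraries alone in the fit. Kcna4, which encodes the slow transient outward channel Kv1.4, was at 10.5, 9.09 and 10.5 CPM in the +dox atria and 5.78, 5.37 and 6.81 CPM in the –dox atria, with a log2 fold change of 0.74 ± 0.17 and an adjusted p of 0.00206. Kcnn1, a calcium-activated channel of small conductance, was at 16.1, 15.8 and 15.8 CPM in +dox and 9.92, 9.88 and 10.8 CPM in –dox libraries (a log2 fold change of 0.64 ± 0.11 and an adjusted p of 0.000103). Kcnk1, a background leak channel gene, rose by 3.07 ± 0.68 but reached only 1.31 CPM. The 3 calls were absent with limma on log2(TPM + 1). Kcnj3 and Kcnj5, whose products form the acetylcholine-gated channel of the atrium, had log2 fold changes of -0.46 (adjusted p = 0.0374) and 0.47 (adjusted p = 0.00403), both under the fold cutoff.

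Pacemaker and sinoatrial node genes moved both ways, with 4 of 20 higher, 2 lower and a median of -0.14. The calcium channel genes of diastolic depolarization were higher in every +dox library than in any –dox library. Cacna1d, of the L-type channel Cav1.3, was at 21.7, 20.2 and 17.5 CPM without dox and 50.1, 50.8 and 39.7 CPM with it, with a log2 fold change of 1.24 ± 0.13 and an adjusted p of 6.19e-08. Cacna1g, of the T-type channel Cav3.1, was at 73.0, 73.8 and 58.5 CPM in the +dox atria and 30.1, 27.3 and 22.6 CPM in the –dox atria, with a log2 fold change of 1.36 ± 0.29 and an adjusted p of 0.00187. Its T-type relative Cacna1h had a log2 fold change of 1.32 ± 0.37, and the calcium sensor gene Vsnl1, a sinoatrial marker, one of 1.56 ± 0.35 (19.9, 18.7 and 16.5 CPM in +dox and 7.76, 5.72 and 5.28 CPM in –dox libraries). Tbx3, the transcription factor that keeps the node from becoming working muscle, was at 8.31, 7.98 and 8.48 CPM without dox and 5.05, 5.51 and 4.71 CPM with it and fell (a log2 fold change of -0.70 ± 0.17 and an adjusted p of 0.00535). Tbx18, of the sinus head and the epicardium, fell by 0.64 ± 0.14 on the log2 scale. Hcn4, the main pacemaker channel gene, was at 24.4, 27.2 and 17.1 CPM in the +dox atria and 15.5, 13.1 and 2.88 CPM in the –dox atria and was not called (a log2 fold change of 1.13 ± 0.53 and an adjusted p of 0.154). Node markers also differed between libraries of 1 cohort. –dox replicate 3 had the lowest Hcn4 and Cntn2 but the highest Tbx3 (8.48 CPM). Without this library the log2 fold change of Hcn4 was 0.68. Cacna1h lost its call without +dox replicate 1 or 2 or –dox replicate 2 or 3 (1.09 to 1.32), and Tbx18 without +dox replicate 1 (-0.53). Tbx3 lost its call without replicate 3 of both cohorts, and limma on log2(TPM + 1) called neither Tbx3 nor Tbx18. The part of unequal sampling of the node in these changes was not tested.

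**Figure D3:**
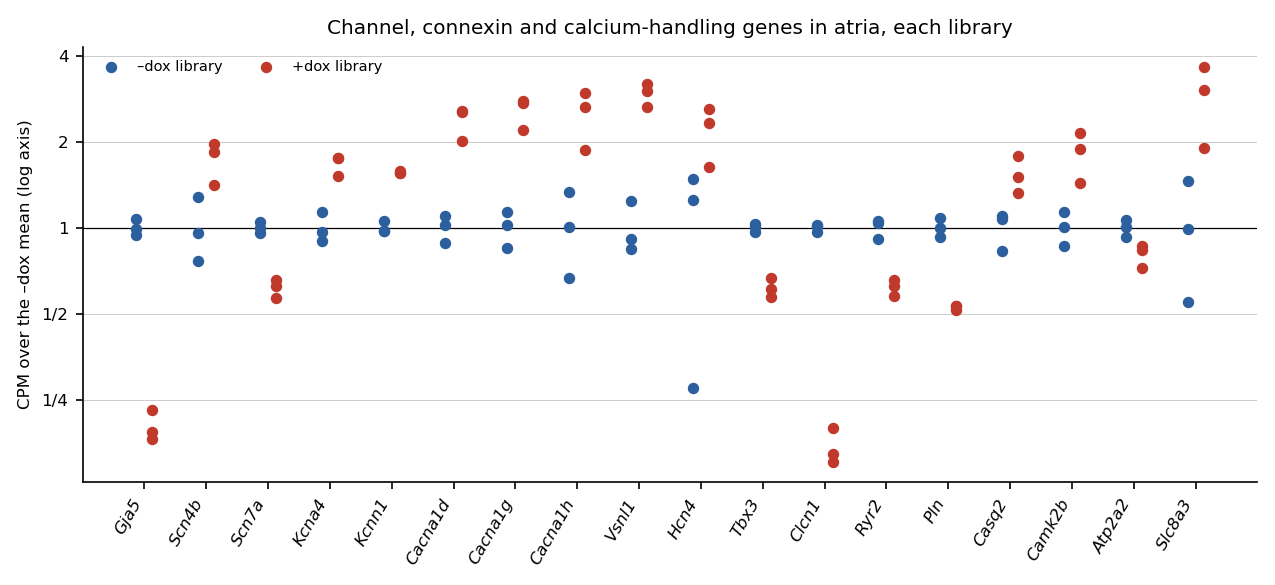
Channel, connexin and calcium-handling genes, with each library's CPM divided by the mean of the 3 –dox libraries on a log axis. Blue points are –dox and red points are +dox libraries. Gja5 and Clcn1 lie lowest in every +dox library, Cacna1d, Cacna1g and Vsnl1 lie at or above 2, and the Hcn4 point far below the others is –dox replicate 3.

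Calcium release and reuptake genes had 3 rises and 5 falls among 43 tested, and a median near 0. Ryr2 (chr13:11553102-12106945), the release channel of the sarcoplasmic reticulum, was at 1240.4, 1299 and 1141 CPM in +dox and 2091, 2053 and 1809 CPM in –dox libraries, with a log2 fold change of -0.69 ± 0.07 and an adjusted p of 2.05e-08. Pln, which encodes the SERCA inhibitor phospholamban, was at 1512, 1624 and 1768 CPM without dox and 871, 843 and 867 CPM with it. The 3 +dox libraries hardly differed among themselves and lay below all –dox libraries, with a log2 fold change of -0.93 ± 0.11 and an adjusted p of 3.2e-07. Atp2a2, the SERCA pump gene, was at 13322, 13775 and 11528 CPM in the +dox atria and 16960.0, 16058 and 14766 CPM in the –dox atria. Its libraries did not overlap, but the change was under the fold cutoff (a log2 fold change of -0.31 ± 0.08 and an adjusted p of 0.0106). Asph, which yields the release complex proteins junctin and junctate besides a hydroxylase, was at 430.1, 398 and 356 CPM in +dox and 299, 309.7 and 263 CPM in –dox libraries, also under the fold cutoff (a log2 fold change of 0.44 ± 0.09 and an adjusted p of 0.000479). Casq2, the calcium store protein calsequestrin, was at 722, 704 and 543 CPM without dox and 1169, 986 and 869 CPM with it and rose (a log2 fold change of 0.62 ± 0.13 and an adjusted p of 0.00107), and Camk2b, of calmodulin kinase II, rose by 0.87 ± 0.16. Casq2 overlaps 2 unnamed transcripts on its strand and went under the fold cutoff without +dox replicate 1 or –dox replicate 3 (0.50 in both). Sypl2, the triad protein mitsugumin 29, fell by 0.79 ± 0.20. Ryr3 (-1.06 ± 0.30), Atp2a1 (-0.86 ± 0.23) and the exchanger gene Slc8a3 (1.52 ± 0.45) were called with all libraries. Ryr3 lost its call without +dox replicate 1 or 2 or –dox replicate 1 (-1.04 to -0.71), Atp2a1 without +dox replicate 3 or –dox replicate 1 (-0.73 to -0.61) and Slc8a3 without +dox replicate 1 or 2 or –dox replicate 2 or 3 (1.23 to 1.51).

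Of 25 L-type channel and t-tubule genes, Cav3 (caveolin 3, 0.63 ± 0.12) and Cacng4 (2.66 ± 0.93, at most 0.377 CPM) rose and Cavin4 (-0.60 ± 0.16) fell. Each of the 3 lost its call when some 1 library was left out. Cav3 did so without +dox replicate 1 or –dox replicate 3 (0.50 to 0.57), Cavin4 without +dox replicate 2 or 3 or –dox replicate 1 or 2 (-0.57 to -0.44), and Cacng4 without any 1 of the 6 (2.25 to 3.05). Of 17 chloride channel genes, 2 fell. Clcn1 (chr6:42286685-42315756), the muscle chloride channel whose loss gives myotonia in skeletal muscle, was at 3.10, 2.52 and 2.36 CPM in the +dox atria and 16.0, 15.1 and 15.9 CPM in the –dox atria, with a log2 fold change of -2.55 ± 0.22 and an adjusted p of 1.16e-09. Ano5, a scramblase gene of the anoctamin family, fell by 2.73 ± 0.64 from levels of at most 0.768 CPM.

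Skeletal muscle and fetal sarcomere genes had 4 falls and 1 rise among 23. The 3 fast skeletal genes Mybpc2, Tnnt3 and Tnni2 were among the falls. Mybpc2, the fast form of myosin-binding protein C, was at 4.39, 3.63 and 2.61 CPM in +dox and 23.2, 22 and 26.5 CPM in –dox libraries (a log2 fold change of -2.75 ± 0.39 and an adjusted p of 1.97e-05). Tnnt3, fast troponin T, fell by 3.39 ± 0.59 from at most 1.28 CPM, and Tnni2, fast troponin I, by 2.02 ± 0.57 from at most 0.874 CPM. Klhl40, a muscle-specific Kelch protein, fell by 0.71 ± 0.15. Myh8, perinatal myosin, was at 1.66, 1.75 and 2.15 CPM without dox and 8.64, 8.45 and 3.57 CPM with it and rose (a log2 fold change of 1.90 ± 0.53 and an adjusted p of 0.0139). It lost its call without +dox or –dox replicate 1 or 2 (1.70 to 1.86), and Tnni2 did so without +dox replicate 2 (-1.88).

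In the cardiac sarcomere list, 3 of 37 genes fell and 1 rose, with 9 of 37 above 0 and a median of -0.18. Tnnc1, cardiac troponin C, was at 451, 339.6 and 360.4 CPM in the +dox atria and 642, 633 and 518 CPM in the –dox atria (a log2 fold change of -0.64 ± 0.13 and an adjusted p of 0.000613). Lmod3, of thin filament assembly, fell by 0.60 ± 0.09 and Myot, the Z-disc protein myotilin, by 1.04 ± 0.27, while Smyd2, a methyltransferase gene, rose by 0.79 ± 0.14. Each of the 4 lost its call when some 1 library was left out, Myot on its adjusted p (0.0547 to 0.0612) and the others on the fold cutoff. These were +dox replicate 2 or –dox replicate 1 for Tnnc1 (-0.58 to -0.56), +dox replicate 1 or –dox replicate 2 for Lmod3 (-0.56 to -0.55), +dox replicate 2 or –dox replicate 3 for Myot (-0.92 to -0.86) and +dox replicate 2 for Smyd2 (0.57). Tnnt2, cardiac troponin T, was at 3108, 3031 and 2628 CPM in +dox and 3979, 4142 and 4067 CPM in –dox libraries. It was lower in every +dox library with a change under the fold cutoff, at -0.48 ± 0.09. Myh6, whose promoter drives the transactivator, had a change of 0.03 (adjusted p = 0.889).

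Among 11 genes of the natriuretic peptide system, 4 fell and 1 rose, with a list median of -0.59 against -0.027 over all genes. Nppa, the precursor of atrial natriuretic peptide and among the most abundant transcripts of the atrium, was at 12376, 13789 and 13219 CPM without dox and 8188, 7015 and 7249.8 CPM with it. The cohorts did not overlap, and the +dox mean was lower by a log2 fold change of -0.81 ± 0.50, which missed the test (adjusted p = 0.301). With the 18 atrial libraries alone in the fit, its change was -0.80 and its adjusted p 0.00205. Corin, the protease that cuts the Nppa product to its active form, was at 179, 212 and 184 CPM in the +dox atria and 376, 397 and 394 CPM in the –dox atria, with a log2 fold change of -1.02 ± 0.13 and an adjusted p of 2.77e-06. Furin, a convertase that also cuts natriuretic peptide precursors, was at 295, 289 and 249.8 CPM in +dox and 161, 146 and 157 CPM in –dox libraries and rose (a log2 fold change of 0.85 ± 0.11 and an adjusted p of 8.8e-07). Nppb, the precursor of brain natriuretic peptide, was at 123, 140.5 and 84.8 CPM without dox and 60.9, 33.9 and 50.4 CPM with it (a log2 fold change of -1.26 ± 0.37 and an adjusted p of 0.0198). Mme, which encodes the natriuretic peptide-degrading enzyme neprilysin, fell by 0.73 ± 0.16, and Npr2, the receptor of C-type peptide, by 0.59 ± 0.10. The receptor gene Npr1 was under the fold cutoff at -0.57 (adjusted p = 0.000996). Nppb lost its call without +dox replicate 2 or –dox replicate 1 or 2 (-1.22 to -1.06), and Npr2 without +dox replicate 1 or 2 or –dox replicate 3 (-0.58 to -0.52).

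Among 41 hypertrophy and stretch response genes, 4 rose and 2 fell. Fhl2, a LIM protein of the sarcomere, was at 218, 189.9 and 120.3 CPM in the +dox atria and 101, 77.3 and 91.2 CPM in the –dox atria, with a log2 fold change of 0.97 ± 0.18 and an adjusted p of 0.000282. Agtr1a, the angiotensin II receptor gene, was at 25.1, 26.4 and 24.7 CPM in +dox and 15.9, 13.5 and 13.5 CPM in –dox libraries (a log2 fold change of 0.83 ± 0.13 and an adjusted p of 3.82e-05). Fgf16, a cardiac growth factor, rose by 1.56 ± 0.24. Nmrk2, a kinase that feeds NAD synthesis, was at 10.8, 5.38 and 8.18 CPM without dox and 2.36, 2.34 and 3.31 CPM with it and fell (a log2 fold change of -1.61 ± 0.26 and an adjusted p of 5.1e-05). Hbegf had a change of 0.59 ± 0.15 and Edn3 one of -3.08 ± 1.02, the latter with overlapping libraries at no more than 0.488 CPM. Hbegf lost its call without replicate 1 of either cohort or –dox replicate 3 (0.50 to 0.55), and Edn3 without +dox replicate 1 or 2 or –dox replicate 2 (-2.71 to -1.62).

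Of 46 adrenergic, muscarinic and cyclic nucleotide genes, 2 rose and 5 fell. Adora1, the adenosine A1 receptor that slows the node and the atrioventricular junction, was at 72.2, 61.9 and 51.7 CPM in the +dox atria and 32.3, 24.6 and 24.9 CPM in the –dox atria and rose (a log2 fold change of 1.18 ± 0.18 and an adjusted p of 2.42e-05). Grk5, a kinase that desensitizes beta-adrenergic receptors, was at 139, 141 and 114 CPM in +dox and 64.4, 72.2 and 65.0 CPM in –dox libraries (a log2 fold change of 0.97 ± 0.15 and an adjusted p of 4.19e-05). The falls were in Adra1a (-0.93 ± 0.25), Adra2c (-1.73 ± 0.56), the RGS genes Rgs2 (-0.60 ± 0.12) and Rgs4 (-0.59 ± 0.14), and the phosphodiesterase gene Pde5a (-0.59 ± 0.12). Adra1a kept its call without any 1 of the 6 libraries, but lost it with limma on log2(TPM + 1) and without replicate 3 of both cohorts. The others lost theirs when some 1 library was left out. Adra2c did so without replicate 1 or 3 of either cohort (-1.79 to -1.15), Rgs2 without +dox replicate 2 or –dox replicate 3 (-0.58 to -0.52), Rgs4 without replicate 1 of either cohort (-0.57 to -0.48) and Pde5a without +dox replicate 3 or –dox replicate 1 or 2 (-0.55 to -0.54).

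Fatty acid uptake and oxidation was the metabolic list with the most calls, all of them lower. Of 53 genes, 8 fell, none rose and 11 had a change above 0, with a median of -0.22. The falls were 15.1% of the list, against 2.83% of all genes, and the median was -0.12 without +dox replicate 3 and -0.14 without –dox replicate 1. Pdk4, the kinase that shuts pyruvate out of oxidation, was at 603, 339 and 675 CPM without dox and 114, 133 and 108 CPM with it, with a log2 fold change of -2.19 ± 0.50 and an adjusted p of 0.00344. Pnpla2, adipose triglyceride lipase, was at 164, 189 and 177 CPM in the +dox atria and 299, 281 and 335 CPM in the –dox atria (a log2 fold change of -0.79 ± 0.12 and an adjusted p of 2.02e-05). The uncoupling protein gene Ucp2 was at 213, 240.5 and 179 CPM in +dox and 465, 447 and 423 CPM in –dox libraries (a log2 fold change of -1.08 ± 0.16 and an adjusted p of 2.14e-05). Ucp3 (-1.89 ± 0.53), Acot1 (-1.26 ± 0.38), Lipe (-0.62 ± 0.19) and Slc27a1 (-0.59 ± 0.19) were called with all libraries. Ucp3 lost its call without +dox replicate 1 or 3 or –dox replicate 1 (-1.79 to -1.54), Acot1 without +dox replicate 1 or 2 or –dox replicate 3 (-1.18 to -0.91), Lipe without replicate 1 or 3 of either cohort (-0.58 to -0.51) and Slc27a1 without any 1 library except –dox replicate 2 (-0.65 to -0.44). The count was 5 without +dox replicate 1 or 3 or –dox replicate 1, 6 without –dox replicate 3 and 3 without both, where Pdk4 had an adjusted p of 0.0521. White fat cell markers moved with this list. None of the 9 tested was above 0, their median was -1.81 (-3.36 without +dox replicate 3 and -1.04 without –dox replicate 3), and 1 was called, Plin4 at -0.60 ± 0.16, which lost its call without +dox replicate 1 or 3 or –dox replicate 2 (-0.58 to -0.52). The fat cell hormone gene Adipoq was at 0.0861 to 2.51 CPM in +dox and 0.630 to 7.03 CPM in –dox libraries. The part of fat cells in the falls of this list was not tested. The beta-oxidation enzyme gene Hadhb was under the fold cutoff (872, 848 and 730.1 CPM without dox and 595, 578 and 469.5 CPM with it; -0.58 ± 0.10).

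Other energy lists had few calls or none. Of 14 creatine kinase shuttle genes, 1 was called. Ckmt2 (chr13:91853387-91876885), the mitochondrial creatine kinase of heart, was at 242, 205 and 159 CPM in the +dox atria and 758, 721 and 608 CPM in the –dox atria, with a log2 fold change of -1.78 ± 0.12 and an adjusted p of 1.7e-12. Ckm, the cytosolic form, had -0.38 (adjusted p = 0.00609), under the fold cutoff. None of 53 glucose uptake, glycolysis and glycogen genes was called by edgeR, DESeq2 or limma, though 17 had an unadjusted p under 0.05. In this list, edgeR called 1 gene higher without +dox replicate 3 and 1 higher with the 18 atrial libraries alone in the fit. The glucose transporter gene Slc2a4 had -0.57 (adjusted p = 1.73e-05), under the fold cutoff. edgeR made no call among 13 mitochondrial DNA-encoded protein genes, 86 nuclear respiratory chain genes or 78 mitochondrial ribosomal protein genes, whose medians were 0.10, -0.05 and 0.09. Of these, 5, 13 and 24 had an unadjusted p under 0.05, and DESeq2 and limma each called 1 respiratory chain gene and none of the others. With the 18 atrial libraries alone in the fit, edgeR called 1 respiratory chain gene lower. mt-Rnr2, the large mitochondrial ribosomal RNA, had -0.65 ± 0.13 and went under the fold cutoff without +dox replicate 3 (-0.56). The libraries were made by poly(A) selection, which is not meant to capture ribosomal RNA. Of 83 cytosolic ribosomal protein genes, Rpl3l, the striated muscle form, fell (4.95, 4.84 and 4.99 CPM in +dox and 9.67, 7.47 and 13.2 CPM in –dox libraries; -1.04 ± 0.17), and Rps4l, a near copy of Rps4x whose reads may be split between the copies, rose (1.18 ± 0.29).

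Of the stress response lists, ATF4 and one-carbon genes had the most calls. Among 35, 2 rose and 4 fell, or 17.1% against 5.23% of all genes. Mthfd2, a mitochondrial folate enzyme, was at 11.3, 10.2 and 2.26 CPM without dox and 3.64, 1.97 and 2.24 CPM with it and had a log2 fold change of -1.60 ± 0.36 and an adjusted p of 0.00283. The cohorts overlapped in Mthfd2, since –dox replicate 3 lay with the +dox libraries. Phgdh, of serine synthesis, fell by 1.23 ± 0.25 and the pseudokinase gene Trib3 by 0.73 ± 0.16, while Wars, a tRNA synthetase gene that interferon gamma also induces, rose by 0.85 ± 0.19. Asns (-0.87 ± 0.30) lost its call without any 1 library except –dox replicate 3 (-0.95 to -0.68), and Aldh1l2 (0.61 ± 0.15) without replicate 2 of either cohort or –dox replicate 3 (0.47 to 0.57). Of 25 endoplasmic reticulum chaperones, Cdnf was the 1 called. Its relative Manf had 0.45 and Calr, calreticulin, 0.35, with the same adjusted p of 0.000891 and both under the fold cutoff. None of 25 heat shock protein genes or 22 circadian clock genes was called by edgeR, DESeq2 or limma, with 4 of each at an unadjusted p under 0.05. Of the proteolysis genes, 1 of 26 ubiquitin ligase and autophagy genes, Asb11, fell by 0.68 ± 0.15.

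Of 21 genes of MBNL proteins and other splicing regulators, 0 were called by edgeR, DESeq2 or limma, and 8 had an unadjusted p under 0.05. Without +dox replicate 3, edgeR called 1 of the 21 higher. Mbnl1 was at 188, 165 and 179 CPM in the +dox atria and 165, 169 and 149 CPM in the –dox atria and Mbnl2 at 325, 294 and 302 CPM in +dox and 268, 274 and 223 CPM in –dox libraries, with changes of 0.14 (adjusted p = 0.300) and 0.27 (adjusted p = 0.0427). The members described next were chosen after their values were seen, and all 4 were under the fold cutoff. Celf1, which opposes MBNL at many exons, was at 162, 153 and 135 CPM without dox and 218, 201 and 175 CPM with it, with a log2 fold change of 0.40 ± 0.08 and an adjusted p of 0.000316. Celf2 was lower, at 55.3, 55.4 and 57.3 CPM in the +dox atria and 82.8, 77.7 and 72.1 CPM in the –dox atria, with a log2 fold change of -0.47 ± 0.07 and an adjusted p of 1.49e-05. Khdrbs3 and Rbfox2 had 0.54 ± 0.10 and 0.28 ± 0.07. The mouse Dmpk gene, which is distinct from the transgene, was at 573, 560.5 and 503 CPM in +dox and 494, 447 and 459.5 CPM in –dox libraries (a log2 fold change of 0.22 ± 0.09 and an adjusted p of 0.0788). Splicing itself was not analysed here.

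Of 31 genes listed as atrial identity and cardiac transcription factors, 2 were called, Cited1 and Vxn, both higher. Both are among the largest rises described above, and the list was chosen with earlier results of these data known. None of its other members was called, so the 2 calls describe these genes and not the list. Of 40 DNA replication and mitosis genes, 1 was called. Ccnd2, the cyclin that drives cells into the cycle, was at 159, 161 and 154 CPM without dox and 383, 390.1 and 292 CPM with it, with a log2 fold change of 1.17 ± 0.14 and an adjusted p of 1.04e-06. In ventricle, 17 of the 40 rose between the same cohorts, while 1461 of all 19231 tested genes were called there, either way. Among 47 TGF-beta family genes, Bmp5, a ligand, was at 26.9, 24.2 and 20.6 CPM in the +dox atria and 11.7, 10.5 and 8.00 CPM in the –dox atria (a log2 fold change of 1.25 ± 0.16 and an adjusted p of 1.22e-06). Inhbb (1.11 ± 0.33) and Fst (-1.20 ± 0.41) were called with all libraries. Inhbb lost its call without +dox replicate 1 or 2 or –dox replicate 3 (0.87 to 1.05), and Fst without any 1 library except –dox replicate 2 (-1.44 to -0.63).

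Collagen and matrix genes had 3 falls and no rise among 51, with 6 of 51 above 0 and a median of -0.31. The falls were 5.88% of the list, against 2.83% of all genes tested. Without –dox replicate 3 the median was -0.13, and without replicate 3 of both cohorts it was -0.15 with 1 gene called. Ccn2, a matrix-bound growth factor induced by stretch and TGF-beta, was at 197, 118 and 193 CPM in +dox and 252, 483 and 557 CPM in –dox libraries, with a log2 fold change of -1.34 ± 0.32 and an adjusted p of 0.00424. Fn1, fibronectin, was at 160.4, 186 and 209 CPM without dox and 111, 107 and 96.7 CPM with it (a log2 fold change of -0.82 ± 0.19 and an adjusted p of 0.00308). Loxl4, a collagen cross-linking enzyme, had -0.86 ± 0.29 and lost its call without +dox replicate 1 or 2 or –dox replicate 1 or 3 (-0.88 to -0.74). Col3a1, the type III collagen gene, was at 304, 286 and 323 CPM in the +dox atria and 341, 317 and 526 CPM in the –dox atria, with overlap and no call (adjusted p = 0.498). Among the lists of non-muscle markers, the fibroblast, endothelial and mesothelial lists also had medians below 0. None of 10 fibroblast markers and none of 10 endothelial markers lay above 0, with medians of -0.34 in both, none called by any of the 3 tools and 4 and 8 at an unadjusted p under 0.05, and the 8 mesothelial markers had a median of -0.94 with 1 called, Tbx18. The fibroblast median was -0.18 without –dox replicate 3, and the mesothelial one was -0.61 without +dox replicate 1. In such bulk tissue, fewer cells of a type and less RNA of a gene per cell cannot be told apart, and the part of cell make-up in the collagen list was not tested. Of 9 nerve and Schwann cell markers, 1 lay above 0 and the median was -0.68. edgeR called 2 of them, and DESeq2 and limma 1 each. By edgeR, Mbp, myelin basic protein, fell by 0.83 ± 0.22 and Prph, peripherin, by 2.75 ± 0.88. Mbp lost its call without +dox replicate 1 (-0.77), and Prph without any +dox library or –dox replicate 2 (-2.77 to -1.53).

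In the dystrophin complex and sarcolemma list, 2 genes rose, with Cav3 among them, and Lims2 (-0.59 ± 0.17) fell, of 26 tested. Lims2 lost its call without replicate 3 of either cohort (-0.55 to -0.54). Other members of the complex at the muscle membrane lay just under the fold cutoff. Dag1, dystroglycan, was at 1098, 1090.1 and 851 CPM in +dox and 677, 702 and 677 CPM in –dox libraries, with a log2 fold change of 0.56 ± 0.09 and an adjusted p of 4.79e-05. Sgce and Sspn, of the sarcoglycan subcomplex, had 0.58 (adjusted p = 5.54e-06) and 0.51 (adjusted p = 0.000267).

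**Figure D4:**
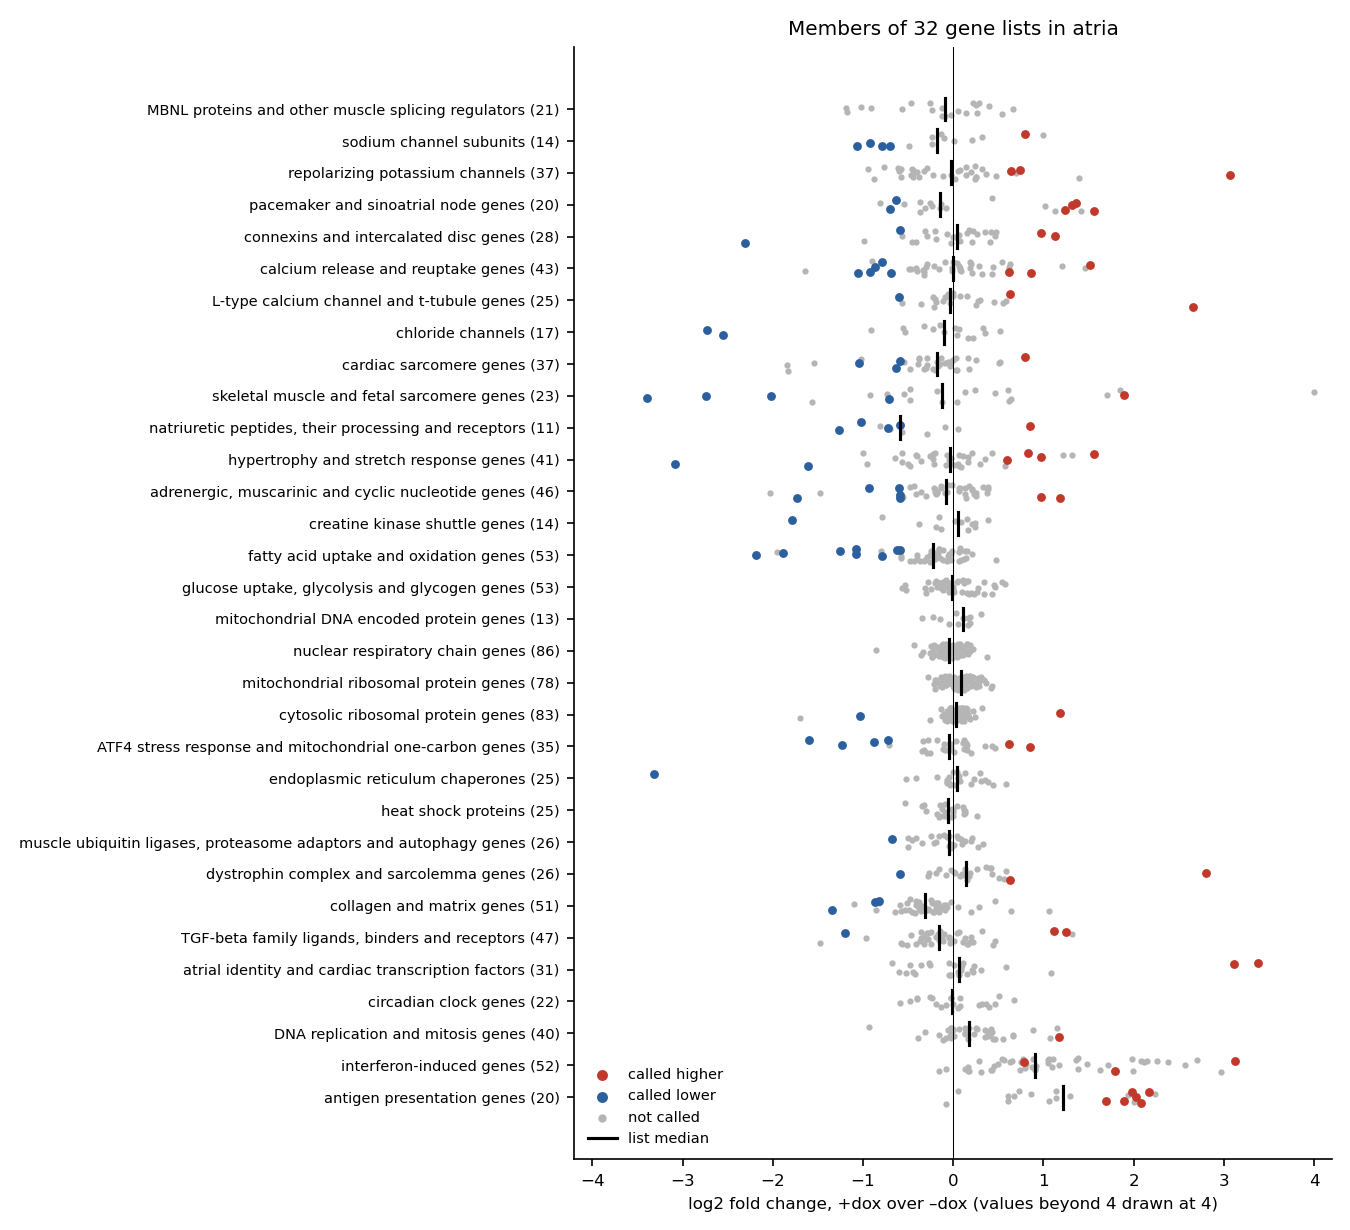
Log2 fold changes, +dox over –dox, of the tested members of 32 gene lists, with the number tested in parentheses. Red points were called higher, blue points lower and grey points were not called, and the black bar is the list median. Antigen presentation and interferon-induced genes have medians of 1.22 and 0.91, the natriuretic list has -0.59, and most of the other medians lie near 0.

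Antigen presentation genes were the list with the highest median. Of 20 tested, 6 were called, all higher, 19 lay above 0 and the median was 1.22. The 6 belong to the class II pathway, by which cells show peptides to helper T cells. They are the chain genes H2-Aa, H2-Ab1 and H2-Eb1, the peptide-loading genes H2-DMa and H2-DMb1, and Cd74, the invariant chain. Cd74 was at 63.7, 106 and 68.5 CPM without dox and 255, 191 and 435 CPM with it. H2-Ab1 was at 66.4, 42.8 and 124 CPM in the +dox atria and 13.7, 23.6 and 14.4 CPM in the –dox atria. +dox replicate 3 was the highest library in all 6 genes, and all 3 +dox libraries lay above the –dox libraries. The log2 fold changes were 1.89 ± 0.61 for Cd74, 2.17 ± 0.68 for H2-Ab1, 2.09 ± 0.71 for H2-Aa, 1.98 ± 0.62 for H2-DMa, 2.03 ± 0.61 for H2-DMb1 and 1.70 ± 0.51 for H2-Eb1, with adjusted p-values of 0.0213 to 0.0479. By edgeR, none of the 20 was called without +dox replicate 3 (median 0.66), without –dox replicate 3 (1.24) or without both (0.68), and 2 were without +dox replicate 1 (1.40). Without –dox replicate 1 all 6 lost their call, at 1.74 to 2.04, and without –dox replicate 2 Cd74 (2.15), H2-Aa (2.43), H2-DMa (2.15) and H2-Eb1 (1.63) did. With the 18 atrial libraries alone in the fit, 8 were called. The class I genes B2m and H2-K1 were not called, at 1.14 each (adjusted p = 0.173 and 0.261).

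Genes of the class II pathway share a promoter module that includes a Y box, an inverted CCAAT box bound by the factor NF-Y. The 150 bases upstream of the annotated start of 3 of the called genes are shown, since these genes moved together and hold CCAAT or its reverse ATTGG, in capitals, searched on both strands. The sequences are RefSeq, GRCm38.p6, each read in the direction of its gene, from chr17:34287824-34287973 (minus strand) for H2-Aa, chr17:34305717-34305866 (plus strand) for H2-Eb1 and chr17:34153041-34153190 (plus strand) for H2-DMb1.
H2-Aa: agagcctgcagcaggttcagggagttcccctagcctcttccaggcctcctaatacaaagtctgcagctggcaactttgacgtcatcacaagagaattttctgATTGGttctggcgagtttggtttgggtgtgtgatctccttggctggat
H2-Eb1: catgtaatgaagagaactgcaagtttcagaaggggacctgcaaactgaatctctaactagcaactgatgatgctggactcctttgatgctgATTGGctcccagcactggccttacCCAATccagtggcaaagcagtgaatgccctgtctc
H2-DMb1: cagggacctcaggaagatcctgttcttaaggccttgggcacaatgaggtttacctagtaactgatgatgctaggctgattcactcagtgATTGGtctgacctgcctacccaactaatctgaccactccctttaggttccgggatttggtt
The motif begins 48 bases before the start in H2-Aa, 59 and 35 bases before it in H2-Eb1 and 61 bases before it in H2-DMb1. No match was found in the same window of either of the 2 annotated promoters of H2-DMa. H2-Ab1 and Cd74 are not among the 4 of the 6 called genes looked at. Of all 32851 promoters searched in the same way, 24.5% hold the motif, so a match is a description of the letters only.

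Interferon-induced genes lay mostly above 0 but few passed the test. Of 52, 50 were above 0, the median was 0.91, and 3 were called. All 3 were higher, or 5.77% of the list, against 2.40% of all genes called higher and 5.23% called either way. Usp18, which trims the ubiquitin-like ISG15 from proteins, was at 3.37, 2.04 and 2.92 CPM in +dox and 0.768, 0.617 and 1.01 CPM in –dox libraries, with a log2 fold change of 1.79 ± 0.43 and an adjusted p of 0.00392. The immunity-related GTPase gene Igtp, not called, was at 6.38, 11.5 and 6.71 CPM without dox and 25, 9.84 and 83.4 CPM with it, so that +dox replicate 3 was far above the rest and +dox replicate 2 lay among the –dox libraries. Ifit2 (0.78 ± 0.26) and Gm12250 (3.13 ± 1.03) were called with all libraries and lost their call without any 1 library except +dox replicate 2, at 0.58 to 0.86 and 2.17 to 3.57. The count was 1 without +dox replicate 3 (median 0.53), 2 without –dox replicate 3 (0.98), 1 without +dox replicate 1 (1.01), 12 with the 18 atrial libraries alone in the fit and 13 by DESeq2. In ventricle, 19 of the 52 and 12 of the 20 antigen presentation genes were called higher in the same comparison. Over all 19231 tested genes, 1461 were called in ventricle, either way. Markers of T and natural killer cells had a median of 0.64, with 8 of 10 above 0, none called by any tool and 1 at an unadjusted p under 0.05. This median was 0.23 without +dox replicate 3 and 0.10 without replicate 3 of both cohorts. Those of macrophages had a median of 0.15, with 8 of 12 above 0, 1 at an unadjusted p under 0.05 and 1 called, by limma. The part of immune cells in either list was not tested.

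The 10 called genes with the highest TPM included others outside these lists. Clu, clusterin, a secreted chaperone, was at 1040.4, 1209 and 1108 CPM in the +dox atria and 2004, 2289 and 2000.4 CPM in the –dox atria, with a log2 fold change of -0.91 ± 0.10 and an adjusted p of 3.98e-08. Dstn, the actin-depolymerizing factor destrin, was at 479.9, 411 and 394 CPM in +dox and 202, 202 and 159.9 CPM in –dox libraries, with a log2 fold change of 1.19 ± 0.15 and an adjusted p of 1.06e-06. Dbi, the acyl-CoA-binding protein, was at 61.6, 61.4 and 60.7 CPM without dox and 124, 115 and 85.7 CPM with it (a log2 fold change of 0.82 ± 0.15 and an adjusted p of 0.00042). Crip2, a LIM protein gene, had -0.61 ± 0.10 and went under the fold cutoff without +dox replicate 3 (-0.54) or –dox replicate 1 (-0.58). Hamp, the iron hormone hepcidin, was at 33.4, 33.5 and 31.3 CPM in the +dox atria and 56.3, 85.9 and 36.4 CPM in the –dox atria with -0.86 ± 0.29. Its call was lost without any 1 library except –dox replicate 3 (-0.90 to -0.50).

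The change in atria was compared with that in the ventricle of the same cohorts by an interaction term. Per the study's sample list, the atria and ventricles of these cohorts came from the same animals, while the fit took the libraries as independent. The difference was called for 147 of 19231 genes (0.764%), 71 with a larger signed change in atria and 76 with a smaller one. Of the 147, 41 were called in atria only, 59 in ventricle only, 22 in both and 25 in neither. The number was 89 without atrial +dox replicate 2, 93 without atrial –dox replicate 2 and 279 with DESeq2. With the atrial and ventricular library of the same replicate number taken as 1 animal, 299 genes were called, 143 of them among the 147, and all 21 named genes kept their call. Differences were called in genes of conduction and of calcium handling. Gja5 fell by 2.31 on the log2 scale in atria and had -0.59 in ventricle, a difference of -1.73 ± 0.30 (adjusted p = 0.0023). Pln fell by 0.93 in atria and had -0.05 in ventricle, a difference of -0.88 ± 0.15 (adjusted p = 0.00183). Kcna4 rose by 0.74 in atria and 2.34 in ventricle, a difference of -1.60 ± 0.24 (adjusted p = 0.000405). Dlg4, Rerg, Xylt1 and Bmp5 rose in atria, by 2.00, 1.42, 1.29 and 1.25, with ventricular values of -0.29, -0.79, -0.33 and -0.22. Rerg is a Ras-related growth inhibitor and Xylt1 starts the sugar chains of proteoglycans. In the opposite sense, Igfbpl1 and Rimkla rose more in ventricle, by 3.66 and 4.25, than in atria, by 1.3 and 2.80.

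**Figure D5:**
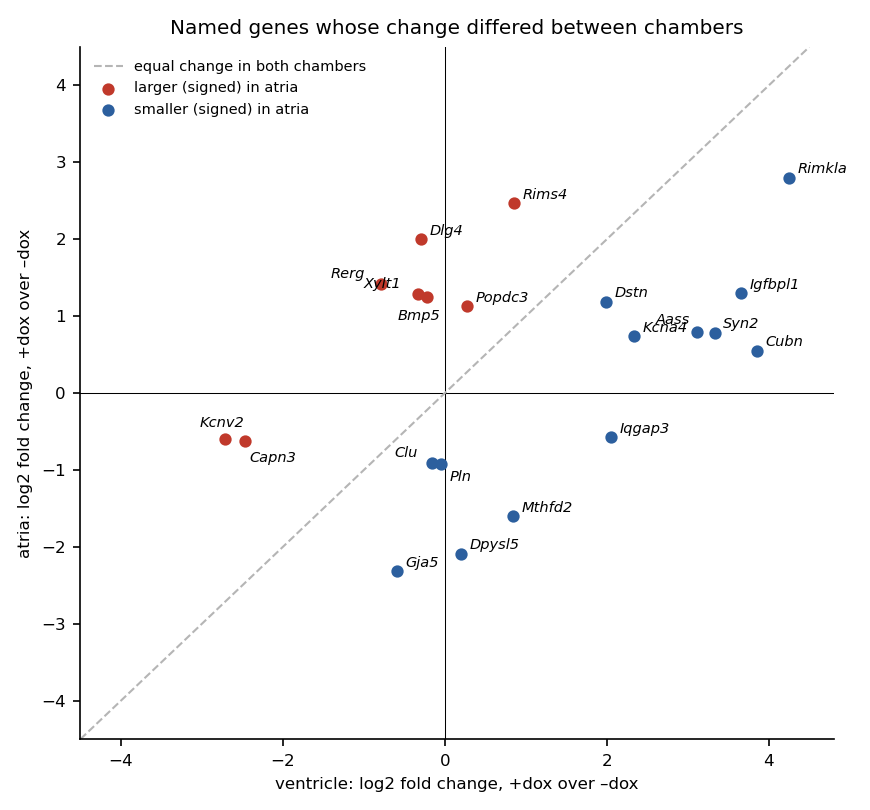
Log2 fold change, +dox over –dox, in ventricle (x axis) and atria (y axis) for the 21 named genes whose change differed between the chambers. Red genes have the larger signed change in atria and blue genes the smaller one, and the dashed line marks equal change. Gja5, Pln, Clu, Dpysl5 and Mthfd2 lie below 0 in atria and near or above -0.59 in ventricle.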

How the data were processed

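RNA of mouse atria was measured in 3 +dox and 3 –dox animals, within a series of 36 libraries from atria and ventricle. Per the paper's methods, the authors made stranded, poly(A)-selected libraries from 250 ng of RNA, sequenced them as paired 150-base reads on a NovaSeq, aligned them with STAR 2.7.10b to mm10 and quantified GENCODE M25 genes with RSEM 1.3.1. The strand setting of RSEM, and how genes that share a symbol were merged, are not given in the sources used here. The authors deposited expected counts, gene estimates of RSEM that are not scaled for library size. The deposited TPM values are the matching estimates per transcript length. Columns holding the results of tests were not used.

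Expected counts were rounded to whole numbers and tested with edgeR 4.0.16 (R 4.3.3) by the robust quasi-likelihood test, with TMM scaling and filterByExpr, in 1 fit of all 36 libraries with a mean for each of 12 groups. The biological coefficient of variation of this fit was 17.41%. The thresholds are those of the study, and the interaction with chamber came from the same fit. The study's sample list gives the same animals for both chambers, and deviations of same-numbered atrial and ventricular libraries correlated at 0.279 to 0.519, so a fit with these pairs as animals was added. The script was tested on simulated data. Replicates of a cohort differed well beyond sampling noise, with a mean chi-square per degree of freedom of 15.53 to 71.46. DESeq2 1.42.0 and limma 3.58.1 on log2(TPM + 1) were alternatives, as were other scalings, filters, samples and blocks. Gene coordinates were looked up in GENCODE M21 (GRCm38), where 96.4% of the symbols were found, and promoters in RefSeq.

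Genes named are the 12 largest rises and 12 largest falls among called genes with at least 1 CPM on average and no overlap between cohorts, leaving out predicted genes, clones, pseudogenes and antisense names. Also named are the 10 called genes with the highest TPM, up to 8 called members of each gene list, genes the study names, and the 6 largest interactions each way. The 32 pathway lists and 17 marker lists were chosen with earlier results of these data known. Other members were named after their values were seen, and are given as values. Some genes that this rule or the lists hold are not reported here, and the counts of the lists still include them.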

Additional observations from a re-analysis of the deposited data

Results flagged for a closer look

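The 21 named genes below had a different change, +dox over –dox, in atria and in ventricle by the interaction test of edgeR, at an adjusted p below 0.05 and a difference of at least 1.5-fold. Differences are atria minus ventricle on the log2 scale.

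In 3 genes the change was below 0 in atria and above 0 in ventricle, but none of them was called in both chambers. Mthfd2, a mitochondrial folate enzyme, had -1.60 in atria and 0.85 in ventricle, a difference of -2.45 (adjusted p = 0.0126). Dpysl5 had -2.09 and 0.20, a difference of -2.29 (adjusted p = 0.0312). Neither was called in ventricle, with adjusted p-values there of 0.0991 for Mthfd2 and 0.784 for Dpysl5. Iqgap3, a scaffold of dividing cells, had -0.57 and 2.05, a difference of -2.62 (adjusted p = 0.0461), and was not called in atria.

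A group of genes rose in ventricle and less, or not past the test, in atria. Cubn, the endocytic receptor cubilin, had 0.55 in atria, without a call, and 3.85 in ventricle, a difference of -3.30. Syn2, synapsin II, had 0.79 and 3.34 (difference -2.55), Igfbpl1 1.3 and 3.66 (-2.36), Aass, of lysine breakdown, 0.80 and 3.12 (-2.32), Kcna4 0.74 and 2.34 (-1.60), Rimkla 2.80 and 4.25 (-1.45) and Dstn 1.19 and 1.99 (-0.81). The atrial call of Syn2 was lost without +dox replicate 1 or –dox replicate 3 (0.69 to 0.70), and that of Aass without any 1 of the 6 atrial libraries except +dox replicate 3 (0.70 to 0.85).

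Falls in atria that were smaller in ventricle, where none of them was called, were found in Gja5 (-2.31 and -0.59, difference -1.73), Pln (-0.93 and -0.05, difference -0.88) and Clu (-0.91 and -0.15, difference -0.75). The reverse held for the silent potassium channel subunit gene Kcnv2 (-0.60 and -2.72, difference 2.12) and for the muscle protease gene Capn3 (-0.62 and -2.46, difference 1.84), of which Kcnv2 was not called in atria. The atrial call of Capn3 was lost without +dox replicate 2 or 3 or –dox replicate 1 or 3 (-0.70 to -0.43).

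Rises in atria that were larger than in ventricle were found in Rims4 (2.47 and 0.85, difference 1.62) and Popdc3 (1.13 and 0.27, difference 0.85). Dlg4 (2.00 and -0.29, difference 2.29), Rerg (1.42 and -0.79, difference 2.21), Xylt1 (1.29 and -0.33, difference 1.61) and Bmp5 (1.25 and -0.22, difference 1.47) rose in atria and had values below 0 in ventricle, where Rerg was called lower.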

How the results depend on the processing

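The count of 1005 genes stayed within 1.5 times, at 690 to 1311, under other scaling, filters, tools, samples and blocks. It was 3060 without the fold cutoff and 455 at a fold of at least 2. The genes were not all the same. Among the 1005 were 571 of the 690 called by limma and 920 of the 1311 called with the 18 atrial libraries alone in the fit. Leaving out 1 of the 6 libraries gave 696 to 1023. The count of 147 interaction genes was 279 with DESeq2, 75 at a fold of at least 2, and 89 to 164 with 1 library left out. With the replicate number as a block, 1055 genes (975 of them among the 1005) and 167 interaction genes were called. Deviations of same-numbered atrial libraries correlated at 0.253, -0.00932 and 0.363, so the numbers were not taken to pair the +dox with the –dox samples. The block ended 6 named calls, those of Serpina3f, Cacng4, Edn3, Adra2c, Ifit2 and Prph (adjusted p 0.0513 to 0.082). With the chambers paired by replicate number, chosen after seeing the data, 299 interaction genes were called. Of 126 named called genes, 59 kept their call in all 12 alternatives, 67 lost it in at least 1, and none reversed. Of 49 named genes not called, 34 stayed uncalled with the same sign in all alternatives and 3 reversed. Others gained a call in at least 1, such as Sgce in 6 of 12 and Dag1 and Hadhb in 3 each. With 1 library left out, Myl2 ranged from -2.35 to 0.90 (without –dox replicate 3), Myl3 from -2.34 to 0.87 (without –dox replicate 3) and Myh6 from -0.023 (without +dox replicate 2) to 0.063. Without replicate 3 of both cohorts, Myl2 was at 0.76 and Myl3 at 0.66. –dox replicate 3 is the library with ventricular transcripts. DESeq2 called 7 potassium channel, 13 interferon-induced and 7 cardiac sarcomere genes, against 3, 3 and 4 by edgeR, and limma called 0 potassium channel genes and 2 adrenergic and cyclic nucleotide genes, against 7. The cause was not tested. Leaving out replicate 3 of both cohorts, and the 18 atrial libraries for lists and single genes, were chosen after seeing the data.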

Other observations

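The marker lists not described with a pathway list had few calls between the cohorts. Of 13 atrial cardiomyocyte markers, none was called by edgeR, DESeq2 or limma, 3 had an unadjusted p under 0.05 and the median log2 fold change, +dox over –dox, was -0.20. Of 10 smooth muscle and pericyte markers none was called by the 3 tools, with 5 at an unadjusted p under 0.05 and a median of -0.31. Among 9 ventricular cardiomyocyte markers, Ckmt2 was the 1 called by edgeR, and the median was -0.44, which turned to 0.40 without –dox replicate 3 and 0.17 without replicate 3 of both cohorts. The lists of B cells, neutrophils and mast cells, lymphatic endothelium and brown fat held 8, 7, 6 and 8 tested genes with no call by any tool, 0, 0, 2 and 2 at an unadjusted p under 0.05, and medians of -0.03, -0.02, -0.12 and -0.28. No lung epithelial marker passed the filter on low counts, and of 3 markers of thymus and skeletal muscle none was called by any tool, with 1 at an unadjusted p under 0.05 and a median of -0.38. None of the 6 red cell marker genes tested was called by any tool, and all of them lay below 0, with 0 at an unadjusted p under 0.05. Their median of -0.75 turned to 0.17 without –dox replicate 3 and 0.44 without replicate 3 of both cohorts, and was -1.32 with 1 gene called without +dox replicate 1. Without –dox replicate 3 the medians of lymphatic endothelium and brown fat were 0.07 and -0.17.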
